A study of Mus musculus with 27 samples.

Results

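Interferon regulatory factors (IRFs) were followed as 6 genes, Irf1, Irf2, Irf3, Irf4, Irf5 and Irf8, taken by symbol from the count table of all 27 libraries. All 6 were among its 25192 gene symbols. The libraries are bulk RNA sequencing of mouse cells in culture, 3 libraries in each of 9 groups. Macrophages grown from bone marrow (BMDMs), fibroblasts from mouse embryos (MEFs) and cells labelled as endothelial cells of the mouse aorta (MAECs) were each unstimulated (0 h) or exposed to imidazole propionate (ImP), a product of bacterial histidine metabolism, at 10 µg/mL for 1 h or 2 h. The labels give no strain, sex or age of the mice, no genotype, no vehicle group matched in time, and no animal or culture for a library, so p-values measure the spread between these libraries, which may be technical.

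IRFs are transcription factors that share a helix-turn-helix DNA binding domain and recognise interferon response elements, which carry GAAA repeats. IRF3 and IRF5 are made in advance and wait in the cytoplasm until kinases downstream of Toll-like or nucleic acid receptors phosphorylate them. IRF1 is itself induced, by NF-kB and by interferon signalling, while IRF2 binds similar sites and is mainly known as its antagonist. IRF4 and IRF8 are largely confined to blood cells and bind DNA with partners such as PU.1 and BATF.

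Total counts per library ran from 28754034 to 35583478 in macrophages, from 30554596 to 36489015 in fibroblasts and from 18955352 to 61029374 in the libraries labelled aortic endothelial. Levels per library are given as counts-per-million values (CPM) of library totals scaled by TMM within each cell type, so they compare libraries of 1 cell type, while comparisons between cell types rest on 1 scaling of all 27 libraries. All 12 macrophage markers averaged at least 10 CPM in macrophages, with the dendritic cell marker list reaching that level in 1 of 8 genes and the B cell list in 0 of 6. In fibroblasts 6 of 11 fibroblast markers reached 10 CPM. In the libraries labelled aortic endothelial only 1 of 14 endothelial markers did, against 10 of 11 fibroblast and 6 of 8 smooth muscle markers, and Cldn5 and Robo4 were at 0 counts in all 9. These libraries were also made with a low-input kit and the others with a directional kit, so kit and cell type cannot be told apart for them.

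The stretch before the start site is shown for Irf1, the member that stood high in some macrophage libraries labelled ImP, without passing the main test. It is also shown for Irf2 and Irf8, the other members that carry the gamma-activated site letters searched. The sequences are the 250 bases before the RefSeq start (GRCm38.p6, plus strand) at chr11:53769764-53770013 for Irf1, chr8:46739495-46739744 for Irf2 and chr8:120736108-120736357 for Irf8. Capitals mark matches, on either strand, to the NF-kB pattern (GGG, any 5 bases, CC), to TTCNNNGAA (the gamma-activated site, GAS) and to the interferon response element (GAAA, any 2 bases, GAAA).
Irf1: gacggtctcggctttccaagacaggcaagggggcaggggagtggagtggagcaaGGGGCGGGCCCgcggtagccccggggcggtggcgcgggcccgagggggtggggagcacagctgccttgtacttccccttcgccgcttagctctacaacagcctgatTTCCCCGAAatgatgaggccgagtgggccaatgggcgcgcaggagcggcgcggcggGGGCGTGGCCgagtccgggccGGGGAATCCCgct
Irf2: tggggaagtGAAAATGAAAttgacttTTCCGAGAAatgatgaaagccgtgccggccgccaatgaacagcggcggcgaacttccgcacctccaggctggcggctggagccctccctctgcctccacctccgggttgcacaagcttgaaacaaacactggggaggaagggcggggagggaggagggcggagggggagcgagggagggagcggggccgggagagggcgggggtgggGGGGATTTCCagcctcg
Irf8: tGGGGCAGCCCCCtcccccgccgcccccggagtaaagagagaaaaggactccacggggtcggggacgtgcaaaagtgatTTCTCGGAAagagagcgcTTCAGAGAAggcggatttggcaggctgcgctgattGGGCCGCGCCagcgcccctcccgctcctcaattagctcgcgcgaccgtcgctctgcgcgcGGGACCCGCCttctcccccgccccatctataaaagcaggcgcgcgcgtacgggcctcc
The Irf1 stretch held the GAS match TTCCCCGAA 90 to 82 bases before the start, and 4 NF-kB-pattern matches, of which GGGGAATCCC lay 13 to 4 bases before it and 2 others overlapped each other. Irf2 was the only member with the interferon response element, GAAAATGAAA, beside the GAS match TTCCGAGAA and the NF-kB-pattern match GGGGATTTCC. Irf8 held 7 matches in all, 2 to GAS and the rest to the NF-kB pattern, some of which overlapped each other. Irf3, Irf4 and Irf5 held NF-kB-pattern matches only, and the stretches before the second RefSeq starts of Irf1 and Irf8 held none of the 3 patterns. Among 32851 promoter stretches of the same length, 45.8% held the NF-kB pattern, 7.0% the GAS pattern and 3.0% the interferon response element, so the first is common in any such window. A match describes letters, not binding.

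In GRCm38 (GENCODE M21) Irf1 lies on chromosome 11 from 53770014 to 53778374, Irf2 on chromosome 8 from 46739732 to 46847458, Irf3 on chromosome 7 from 44997648 to 45002848, Irf4 on chromosome 13 from 30749226 to 30766976, Irf5 on chromosome 6 from 29526625 to 29541871 and Irf8 on chromosome 8 from 120736358 to 120756694, all on the plus strand. Exons of Irf3 overlap Bcl2l12, exons of Irf5 overlap Tnpo3 and exons of Irf1 overlap Gm17334, each on the opposite strand. The strand used in counting is not given in the sources used here, so reads in those overlaps cannot be told apart.

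Irf2, Irf4, Irf5 and Irf8 had their highest levels in unstimulated macrophages. Irf3 did not, and Irf1 did not pass the test against fibroblasts. Levels per length (CPM per kb of exon, with TMM scaling over all libraries) were highest in these macrophages for Irf5, at 80.5 ± 0.516 (SD, n = 3). Irf8 followed at 42.7 ± 3.45. Irf2 (14.4 ± 1.52) and Irf1 (13.9 ± 1.57) overlapped and came next, then Irf3 at 9.15 ± 0.958 and Irf4 at 1.06 ± 0.269. Every step but that from Irf2 to Irf1 separated all 3 libraries of the higher gene from all 3 of the lower. This order depends on the exon length used, all annotated exons of a gene (2.9 kb for Irf5, 7.06 for Irf8, 7.4 for Irf2, 3.98 for Irf1). In CPM, not divided by length, Irf8 (235 to 277) lay above Irf5 (200 to 203). Irf2 (80.6 to 99.1) then lay above Irf1 (43.6 to 53.4).

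The order was another one in the other cells. Fibroblasts had Irf1 first, at 10.4 ± 0.98 CPM per kb (SD, n = 3), then Irf3 (5.42 ± 0.421), Irf2 (3.69 ± 0.334) and Irf5 (2.17 ± 0.342), with Irf4 and Irf8 overlapping near 0 (0.0266 ± 0.0324 and 0.0246 ± 0.00327). The libraries labelled aortic endothelial had Irf3 first, at 14.8 ± 1.2, then Irf5 (3.4 ± 0.424), Irf2 (2.69 ± 0.238) and Irf1 (1.5 ± 0.781), with Irf8 at 0.102 ± 0.0871 and Irf4 at 0.00395 ± 0.00684. Irf8 and Irf4 were the lowest 2 in both, and Irf3 stood above Irf2 and Irf5 in both per kb. The place of Irf2 depends on its exon length. In CPM, not divided by length, fibroblast Irf2 (28.0 to 33.2) lay above Irf3 (19.3 to 22.2). In the libraries labelled aortic endothelial Irf2 (17.7 to 22.8) then lay above Irf5 (9.36 to 11.1).

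**Figure D1:**
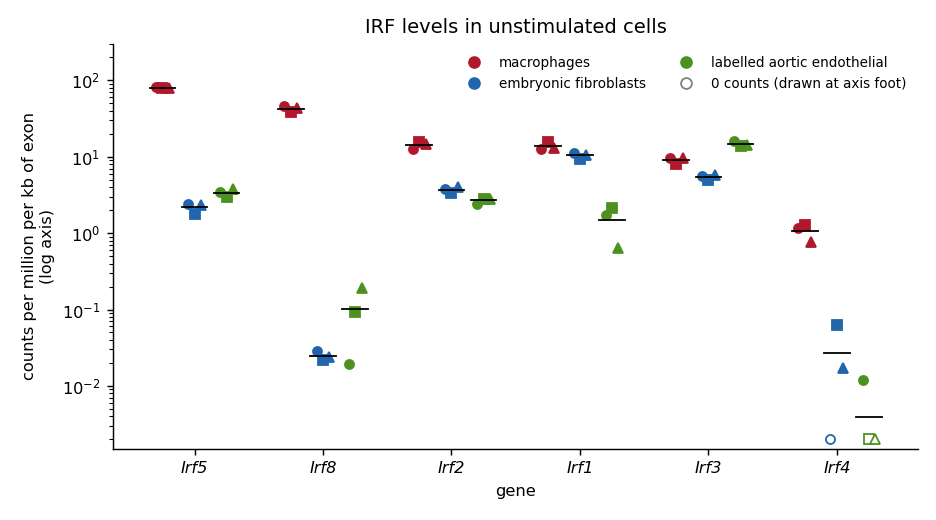
Level of each member in the 3 unstimulated libraries of each cell type, in CPM per kb of exon on a log axis. Points are libraries, bars are means of 3, and open points at the foot are libraries with 0 counts. Irf8 (42.7 in macrophages against 0.0246 in fibroblasts) shows the widest gap between macrophages and fibroblasts on this axis, Irf1 and Irf3 the narrowest. Irf4 (1.06 against 0.0266) and Irf5 (80.5 against 2.17) come next. Their order is not read, since Irf4 rests on 15 fibroblast counts.

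Between cell types at 0 h, 5 of 6 members were higher in macrophages than in fibroblasts by edgeR's quasi-likelihood test at an adjusted p of 0.05, and none was lower. Over all 17038 genes tested 68.3% differed in this comparison, 32.7% higher in macrophages, so a call by itself is common here and the sizes say more. The 5 were higher by 0.76 (Irf3) to 10.73 (Irf8) on the log2 scale. Irf4 and Irf8 entered the comparisons between cell types through their macrophage counts alone, so their calls there are no support. Against the libraries labelled aortic endothelial all 6 differed, 5 higher and Irf3 lower, where 76.7% of all genes did, 36.1% higher and 40.6% lower. Of the 4 members that reached the count minimum in both other cell types, all 4 differed between the libraries labelled aortic endothelial and fibroblasts, 2 higher (Irf3 and Irf5) and 2 lower (Irf1 and Irf2), where 72.1% of all genes differed, 37.2% higher and 34.9% lower.

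Irf3, the kinase-activated factor behind the first wave of type I interferon, had 28.9, 23.8 and 28.6 CPM in the unstimulated macrophage libraries, 21.8, 19.3 and 22.2 in fibroblasts, and 54.9, 52.2 and 49.6 in the libraries labelled aortic endothelial. On the common scaling of all libraries it was the one member highest in the libraries labelled aortic endothelial, which were made with another kit. Its exons overlap Bcl2l12 on the opposite strand, and the part of kit or overlap in its level was not tested. On this scaling Irf3 was 0.76 log2 units higher in macrophages than in fibroblasts (SE 0.138, edgeR adjusted p = 2.86e-05). Over 26 alternative fits, which include other scalings, this difference ranged from 0.34 to 0.84 and passed the threshold in all 26. Macrophages were 0.69 lower than the libraries labelled aortic endothelial (log2 fold change -0.69, SE 0.137, edgeR adjusted p = 6.64e-05). The libraries labelled aortic endothelial exceeded fibroblasts by 1.45 (SE 0.139, adjusted p = 6.87e-10).

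Irf5, the factor that drives cytokine genes such as Il12b and Tnf downstream of MyD88, had 203, 200 and 201 CPM in unstimulated macrophages. The fibroblast libraries had 7.92, 5.88 and 7.64 CPM and the libraries labelled aortic endothelial 9.99, 9.36 and 11.1. Macrophages exceeded fibroblasts by 5.21 log2 units (SE 0.208, edgeR adjusted p = 1.14e-17) and the libraries labelled aortic endothelial by 4.56 (SE 0.201, adjusted p = 6.96e-17). The latter exceeded fibroblasts by 0.65 (SE 0.188, adjusted p = 0.0034).

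Irf8, needed for the monocyte and dendritic cell lineages, was the member with the widest range. It had 277, 235 and 265 CPM in unstimulated macrophages, 0.226, 0.175 and 0.19 in fibroblasts and 0.134, 0.716 and 1.37 in the libraries labelled aortic endothelial. In counts this was 24965 against 20 in fibroblasts, a ratio of shares of 1290 (95% interval 834 to 2110), and against 58 in the libraries labelled aortic endothelial, a ratio of 446 (345 to 588). These intervals cover counting error only. The third unstimulated library labelled aortic endothelial held 36 of those 58 counts. Irf8 was under the count minimum in both of these cell types, so no difference between them is read from it. The macrophage markers together summed to 58.5, 63.3 and 90 CPM in the 3 unstimulated libraries labelled aortic endothelial, and their part in the Irf8 level was not tested. In bulk samples, fewer cells of a type and less RNA per cell cannot be told apart.

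Irf4, the lymphoid and alternative activation factor, was present in macrophages at a low level of 4.97, 5.29 and 3.21 CPM. Fibroblasts had 0, 12 and 3 counts at 0 h and the libraries labelled aortic endothelial 3, 0 and 0. The ratio of shares was 30.1 (95% interval 18.1 to 54.3) over fibroblasts and 151 (51.4 to 736) over the libraries labelled aortic endothelial. Over all times Irf4 had 0 counts in 4 of 9 fibroblast libraries, where 3 counts would be 0.0822 to 0.0905 CPM of the unscaled total, and in 6 of 9 libraries labelled aortic endothelial, where they would be 0.0492 to 0.158 CPM. Irf4 and Irf8 did not reach the count minimum in either of these cell types and have no ImP test there.

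Between macrophages and fibroblasts Irf2, the antagonist, passed the test and Irf1, the activator, did not. These genes were not compared with each other. Irf2 had 80.6, 99.1 and 94.2 CPM in unstimulated macrophages against 31.4, 28.0 and 33.2 in fibroblasts, and was 1.96 log2 units higher (SE 0.134, edgeR adjusted p = 9.13e-13). Irf1 had 43.6, 53.4 and 45.3 CPM in macrophages and 51.0, 42.4 and 47.5 in fibroblasts, groups that overlapped on these scales, but not per kb on the common scaling (12.8, 15.7 and 13.2 against 11.3, 9.37 and 10.6), and did not pass the test (0.41, SE 0.424, adjusted p = 0.4). Scaling by library totals alone lowered the differences between these cell types by a median of 0.42 over 101 member and list genes (shift -0.42) and put Irf1 at -0.01, with the other members' direction kept.

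In the libraries labelled aortic endothelial both were lower. Irf1 had 6.74, 9.36 and 2.55 CPM there, below macrophages by 3.2 log2 units (SE 0.475, edgeR adjusted p = 2.02e-06) and below fibroblasts by 2.79 (log2 fold change -2.79, SE 0.469, adjusted p = 1.27e-05). Irf2 had 17.7, 22.8 and 21.2 CPM, below macrophages by 2.42 log2 units (SE 0.138, adjusted p = 1.35e-14) and below fibroblasts by 0.46 (log2 fold change -0.46, SE 0.133, adjusted p = 0.00351).

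With ImP, Irf1 was the member that stood high in some macrophage libraries, 2 labelled 1 h and 1 labelled 2 h. Irf1 stood at 136 and 137 CPM in the first 2 libraries at 1 h but at 42.3 in the third, while at 2 h the first 2 libraries had 45.1 and 48.5 CPM and the third had 149. The 0 h libraries had 43.6, 53.4 and 45.3. The 3 libraries at 136, 137 and 149 CPM lay well above every unstimulated library, and the groups overlapped.

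Nfkbia, the NF-kB inhibitor that NF-kB itself induces, had the same layout: 39.9, 36.1 and 36.7 CPM at 0 h, 224, 215 and 40.9 at 1 h, and 45.0, 36.8 and 232 at 2 h. Tnf had 15.2, 14 and 15.2 CPM at 0 h, 227, 220.0 and 18.3 at 1 h, and 14.3, 18.5 and 266 at 2 h. On all 3 genes the third 1 h library lay near the first 2 libraries at 2 h, and the third 2 h library near the first 2 at 1 h. The library codes in the labels rise with time in 8 of 9 runs of consecutive codes, and the exception is this run, in which the 1 h library has code 23 and the 2 h library code 22. The labels were kept as given, and the ImP differences of the members in macrophages are given with all libraries and without these 2.

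**Figure D2:**
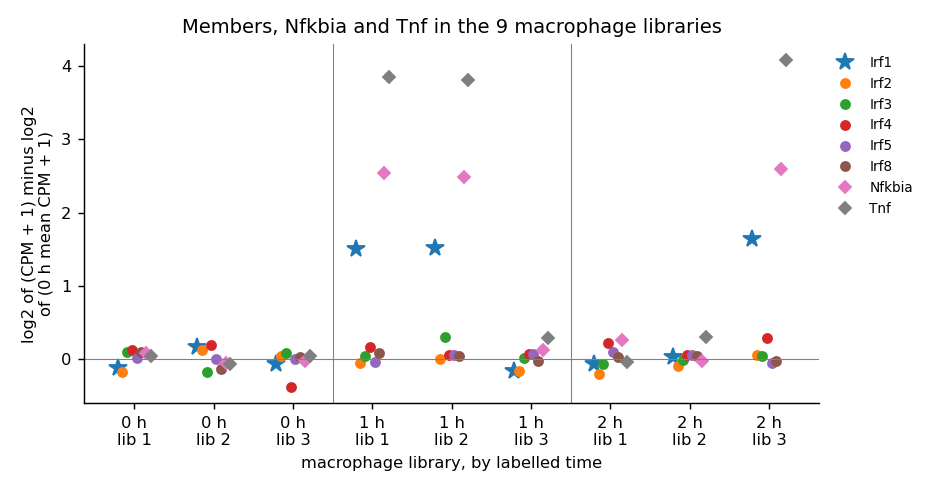
Level in each of the 9 macrophage libraries (x axis, by labelled time) as the log2 of CPM + 1 minus that of the 0 h mean, for the 6 members, Nfkbia and Tnf. Irf1 is raised together with Nfkbia and Tnf in the first and second 1 h libraries and the third 2 h library, while the other 5 members stay near 0 in all 9.

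With all libraries, edgeR called 0 of 6 members in macrophages at 1 h against 0 h, where it called 0.0226% of 13251 genes, 0 of 6 at 2 h against 0 h (0.0302%) and 0 of 6 at 2 h against 1 h (0.0%). Before adjustment, 0 members were under 0.05 in each of the 3 comparisons, and 0 were called by DESeq2 or by limma-voom. Irf1 differed by 1.14 log2 units at 1 h (SE 0.638, adjusted p = 0.954), by 0.77 at 2 h (SE 0.636, adjusted p = 0.878) and by -0.38 between 2 h and 1 h (SE 0.627, adjusted p = 1.0).

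Without the third library of each of the 1 h and 2 h macrophage groups, an alternative chosen after the data were seen, 1 of 6 members passed at 1 h, where 0.928% of 13465 genes did, and that was Irf1. It rose by 1.52 log2 units at 1 h (SE 0.0851, edgeR adjusted p = 1.21e-07), and its 2 remaining 1 h libraries lay above all 0 h libraries, which held for 11.1% of genes. At 2 h it was back at the unstimulated level (-0.02, SE 0.0882, adjusted p = 0.974), where 0 of 6 members and 0.119% of genes passed. From 1 h to 2 h it fell by 1.54 on the log2 scale (SE 0.0967, adjusted p = 6.08e-07), the 1 member called where 0.661% of genes were. The 2 libraries were chosen on values of Irf1 itself, with Nfkbia and Tnf, so this fit only describes the remaining libraries. Its p-values are no support for a change of Irf1 or of the other genes with this layout.

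None of the other 5 members passed a test in macrophages, with or without those libraries. Over the 9 libraries Irf2 ranged from 78.8 to 99.1 CPM, Irf3 from 23.8 to 33.7, Irf4 from 3.21 to 5.72, Irf5 from 193 to 215 and Irf8 from 235 to 277. Irf5 and Irf8, the 2 most abundant per length, had the tightest estimates, 0.03 at 1 h for both (SE 0.0582 and 0.0646) and 0.03 and 0.02 at 2 h (SE 0.0583 and 0.0646). Irf2 was at -0.08 at both times (SE 0.086 at 1 h), Irf3 at 0.13 and -0.01 (SE 0.101 and 0.102), and Irf4, with the fewest counts, at 0.11 and 0.23 (SE 0.192 at both times). The adjusted p of these 5 against 0 h lay between 0.876 and 0.993. Without the third libraries their differences against 0 h lay between -0.16 (Irf2 at 2 h) and 0.18 (Irf3 at 1 h), with adjusted p between 0.701 and 0.987.

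**Figure D3:**
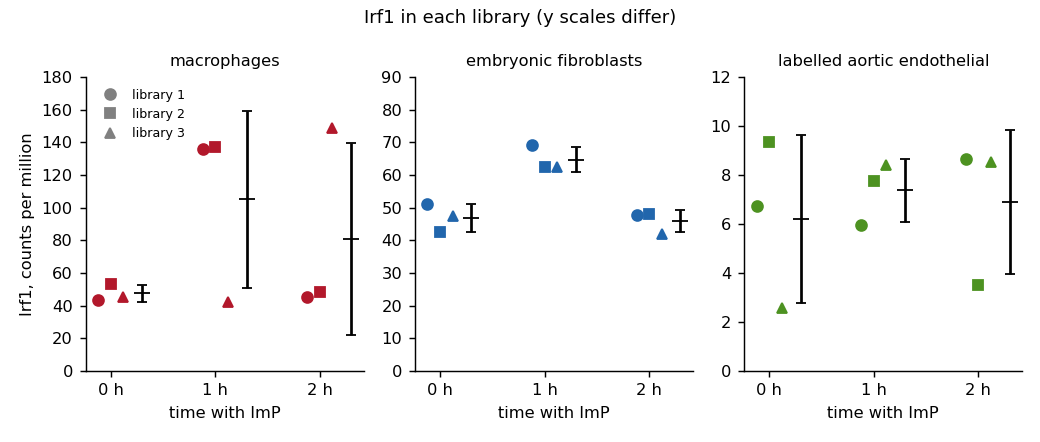
Irf1 in CPM in every library, by cell type and time with ImP; the y scales differ. Symbols are libraries 1 to 3 and the bar is the mean ± SD of 3. The macrophage groups at 1 h and 2 h each hold 1 library apart from the other 2, while all 3 fibroblast libraries at 1 h (62.4 to 69.2) lie above those at 0 h and 2 h.

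In fibroblasts Irf1 was higher at 1 h than before or after. Irf1 had 51.0, 42.4 and 47.5 CPM at 0 h, 69.2, 62.4 and 62.4 at 1 h, then 47.8, 47.9 and 41.9 at 2 h. The 3 libraries at 1 h lay above all 6 others, and 2 h overlapped 0 h. A 1 h group wholly above 0 h was seen in 5.0% of the 14066 genes tested, and a 2 h group wholly below 1 h in 9.1%.

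The fibroblast change of Irf1 did not pass edgeR's adjustment. It was 0.46 log2 units at 1 h (SE 0.0914, adjusted p = 0.566), -0.50 from 1 h to 2 h (SE 0.0913, adjusted p = 0.142) and -0.03 at 2 h (SE 0.0915, adjusted p = 1.0). DESeq2 called it at 1 h (adjusted p = 0.00859) and from 1 h to 2 h (adjusted p = 0.000613). Without the first 1 h library edgeR called the fall from 1 h to 2 h (-0.44, adjusted p = 0.0269) but not the rise. The share of all genes called in these 2 alternative fits is not given here, so their calls are no support.

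Irf5 in fibroblasts showed the same layout at a lower level, 7.92, 5.88 and 7.64 CPM at 0 h, 8.78, 9.88 and 8.92 at 1 h, then 7.95, 8.21 and 7.03 at 2 h. The 1 h libraries again lay above all others, with a difference of 0.36 log2 units (SE 0.149, edgeR adjusted p = 0.846). Of all genes tested, 5.0% had a 1 h group wholly above 0 h and 9.1% a 2 h group wholly below 1 h. Irf2 (0.03, SE 0.109) and Irf3 (-0.05, SE 0.144) did not differ beyond their errors at 1 h, nor did the 4 tested members at 2 h. In all, edgeR called 0 of 4 tested members in fibroblasts at each comparison, and 0.0% of genes. Unadjusted p was under 0.05 for 2 members at 1 h against 0 h, for 0 at 2 h against 0 h and for 1 at 2 h against 1 h. The share of all genes under 0.05 before adjustment is not given here, so these counts are no support. DESeq2 called 1, 0 and 1, with its share of all genes not given either, and limma-voom called 0 in each.

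The 1 h fibroblast libraries differ in more than the IRFs. Deviations of all genes from their mean followed gene length in some of them, with rank correlations over 13825 genes of 0.0086, -0.31 and -0.34 in the 1 h libraries against -0.057 to 0.2 at 0 h and 0.21 to 0.26 at 2 h. The first 1 h library had Irf7, the interferon-induced amplifier, at 30.9 CPM where the other 8 had 6.39 to 14, and Irf9, a DNA binding subunit of the complex activated by type I interferon, at 43.9 where the others had 16.6 to 25.5. It also had Ifit3 at 21 CPM against 5.21 or less elsewhere. Irf1 was 69.2 there and 62.4 in both other 1 h libraries, so its higher level was present in all 3. The part of gene length in the Irf1 and Irf5 results was not tested.

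**Figure D4:**
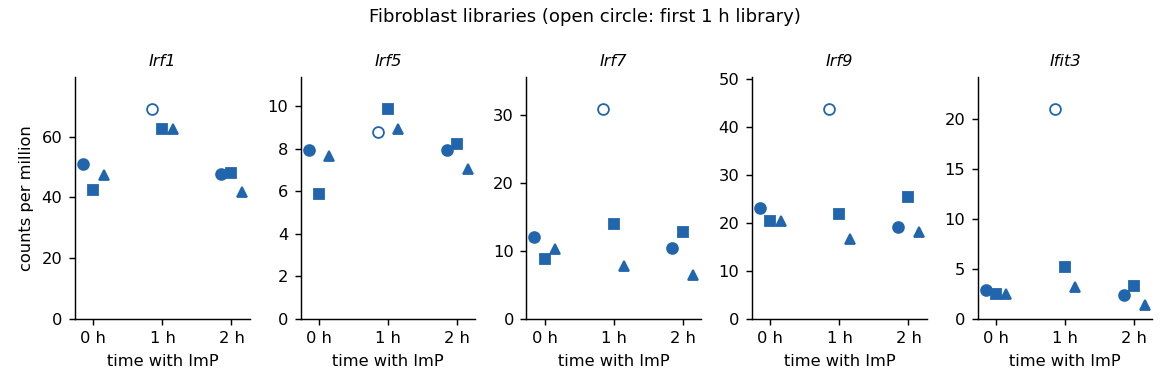
Irf1, Irf5, Irf7, Irf9 and Ifit3 in CPM in the 9 fibroblast libraries, by time with ImP, with the first 1 h library as an open circle. Irf1 and Irf5 are higher in all 3 libraries at 1 h, while Irf7, Irf9 and Ifit3 stand apart in the open circle alone (30.9, 43.9 and 21).

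In the libraries labelled aortic endothelial no member passed a test with ImP. Irf1 had 6.74, 9.36 and 2.55 CPM at 0 h, 5.95, 7.75 and 8.41 at 1 h, then 8.65, 3.52 and 8.55 at 2 h, with all groups overlapping. Its differences were 0.25 at 1 h (SE 0.442) and 0.15 at 2 h (SE 0.441), and errors of that size could not show a change as small as the one in fibroblasts. Irf2 (0.31 and 0.23, SE 0.189) and Irf5 (-0.34 and -0.40, SE 0.281) did not pass either.

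Irf3 in these libraries had 54.9, 52.2 and 49.6 CPM at 0 h and 46.9, 43.9 and 49.3 at 1 h, and its 1 h group lay wholly below 0 h, as 4.89% of 14779 genes did. The difference was -0.16 (SE 0.13, edgeR adjusted p = 0.838). EdgeR called 0 of 4 tested members and 0.0% of genes at 1 h against 0 h, 2 h against 0 h and 2 h against 1 h. Before adjustment 0 members were under 0.05, and neither DESeq2 nor limma-voom called one.

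**Figure D5:**
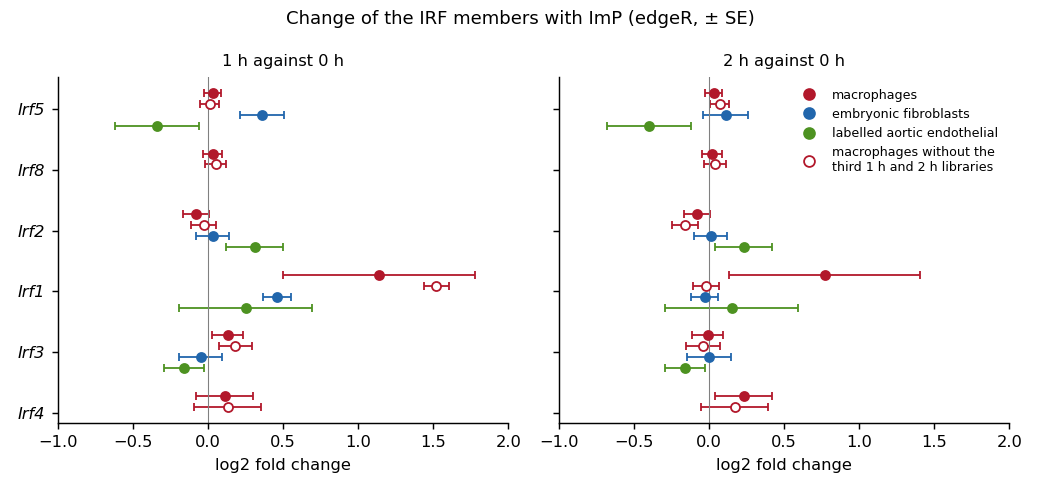
Log2 fold change of each member with ImP against 0 h at 1 h and at 2 h, from edgeR; points are estimates and bars ± 1 SE. Irf4 and Irf8 were tested in macrophages only, and open points are macrophages without the third library at 1 h and at 2 h. Irf1 in macrophages moves from 1.14 to 1.52 at 1 h and from 0.77 to -0.02 at 2 h when these are left out.

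Whether the ImP change differed between cell types was tested as an interaction in 1 model of all 27 libraries. The 1 h change of Irf1 was 0.67 log2 units larger in macrophages than in fibroblasts (SE 0.597, edgeR adjusted p = 1.0), and 1.05 larger without the third macrophage libraries (SE 0.394, adjusted p = 1.0, where 0.154% of genes were called). No member was called in any of the 6 interaction comparisons, where 0.00587% (macrophages minus fibroblasts at 1 h), 0.0117%, 0.0528% or 0.0% of 17038 genes were. Before adjustment 0 to 2 members were under 0.05, a count not read here because the share of all genes is not given. Neither DESeq2 nor limma-voom called a member. Irf1 is therefore not shown to respond differently in macrophages and fibroblasts.

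Irf7 and Irf9, which are not members of the set, were tested in all 3 cell types. Unstimulated macrophages exceeded fibroblasts in both Irf7 (3.7 log2 units, SE 0.334, edgeR adjusted p = 3.8e-10) and Irf9 (2.14, SE 0.239, adjusted p = 1.28e-08). With ImP neither was called. Irf9 in macrophages had 67.5, 72.8 and 74.4 CPM at 0 h and 63.7, 58.8 and 64.2 at 1 h, a group wholly below 0 h, as 5.62% of genes were (log2 fold change -0.20, SE 0.0646, adjusted p = 0.922). Without the third libraries it was at -0.23 (SE 0.0737, adjusted p = 0.368).

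No tested gene of the machinery above the IRFs passed a test in macrophages with ImP. Of 19 sensors, adaptors and kinases upstream of IRF3 and IRF5, 17 were in the table and tested in macrophages, and 0 were called at any time, with or without the third libraries. Ikbke, a kinase of IRF3, had the smallest p at 1 h without them (0.19, SE 0.069, edgeR adjusted p = 0.495). At 0 h 32.7% of all genes were higher in macrophages than in fibroblasts and 35.5% lower. Macrophages exceeded fibroblasts in 15 of these 17 upstream genes, in 16 of 19 IRF1-type targets and in 5 of 10 IRF3-type targets (the other 5 were lower). They also did in 11 of 12 myeloid genes of the IRF8 and PU.1 type, a list of myeloid genes to begin with, so that count is no support. In the fibroblast fit 15 of the 17 upstream genes and 16 of the 19 IRF1-type targets reached the count minimum. Some of these genes may thus have entered the comparison through macrophage counts alone. The lists were also chosen with earlier results of these data known, so these counts are no support either. Of 10 interferon genes 2 were in the table and 0 reached the count minimum. Ifnb1, the interferon that IRF3 drives, had 0, 6 and 1 counts in all at 0, 1 and 2 h in macrophages, 13, 16 and 7 in fibroblasts and 0 at every time in the libraries labelled aortic endothelial. All 11 interferon receptors, JAKs and STATs were tested in macrophages and 0 were called, with or without the third libraries.

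Some partners and targets of the IRFs had the layout of Irf1 over the macrophage libraries. With all libraries edgeR called 0 of 88 genes over the 10 lists of partners, upstream factors and targets at 1 h against 0 h. Before adjustment 6 were under 0.05, a count not read here because the share of all genes is not given. Neither DESeq2 nor limma-voom called one. Without the third libraries edgeR called 6 of 87 at 1 h against 0 h, all higher, where 0.928% of all genes were called. It called 6 of 87 at 2 h against 1 h, all lower, where 0.661% were, and 0 at 2 h against 0 h, where 0.119% were. The libraries left out were chosen on values of Irf1, Nfkbia and Tnf, so for every gene with that layout the values without them describe the remaining libraries and are no independent support.

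Of 9 tested partners and corepressors 1 passed without the third libraries, Irf2bp2, a corepressor that binds IRF2. It had 116, 107 and 109 CPM at 0 h, 143, 141 and 101 at 1 h and 109, 115 and 144 at 2 h, and its difference at 1 h was 0.36 without the third libraries (SE 0.064, edgeR adjusted p = 0.0121) and 0.22 with them (SE 0.145, adjusted p = 0.964). From 1 h to 2 h it was -0.34 without them (SE 0.0707, adjusted p = 0.0478). Its 3 high libraries were the 3 in which Irf1 was high. Spi1, which encodes PU.1, stayed between 194 and 242 CPM over the 9 libraries (0.11 at 1 h without the third libraries, SE 0.0745, adjusted p = 0.834).

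Of 10 IRF3-type early targets 1 passed without the third libraries, the chemokine Cxcl10, with 1.49, 2.96 and 2.25 CPM at 0 h, 9.26, 7.21 and 1.53 at 1 h and 1.65, 1.72 and 9.4 at 2 h (1.88 at 1 h without the third libraries, SE 0.26, edgeR adjusted p = 0.00137). With all libraries it was at 1.42 (SE 0.932, adjusted p = 0.964). Without the third libraries, of these 10 genes only 2 had a positive difference, with a median of -0.153 against -0.00251 over all genes. Isg15 was at 0.37 (SE 0.233, adjusted p = 0.833). Of 18 tested IRF1-type targets, which include antigen processing genes and GBPs, 0 passed at 1 h. The nearest was Gbp5 (1.06, SE 0.222, adjusted p = 0.0568), which had 14.5, 10.6 and 4.86 CPM at 1 h, and it passed as lower at 2 h against 1 h (-1.29, SE 0.253, adjusted p = 0.0494).

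Of 8 cytokine genes known as IRF5 targets 5 were tested. With all libraries 0 of them were called at 1 h, with Il1b at 5.71 (SE 2.39, edgeR adjusted p = 0.922) and Il12b at 4.43 (SE 1.86, adjusted p = 0.922). Without the third libraries 3 passed, with Tnf at 3.92 (SE 0.0949), Il1b at 6.29 (SE 0.168) and Il12b at 4.99 (SE 0.881, adjusted p = 0.012). Ccl3 was at 0.32 (SE 0.0762, adjusted p = 0.0898). Irf5 itself was at 0.01 (SE 0.0608) in that comparison. Il1b had 1.33, 1.58 and 1.02 CPM at 0 h, 106, 101 and 0.955 at 1 h and 1.84, 2.98 and 112 at 2 h. Among 3 tested genes of the IRF4-type list, Kdm6b, a histone demethylase, was at 1.28 without the third libraries (SE 0.107, adjusted p = 7.91e-06) and at 0.95 with them (SE 0.423, adjusted p = 0.931), and Mrc1 and Chil3 did not pass. Of the 12 myeloid genes of the IRF8 and PU.1 type 0 were called, the smallest p being that of Ctsc (0.28, SE 0.0667, adjusted p = 0.101).

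In fibroblasts edgeR called 0 of 80 genes of these lists at 1 h against 0 h, 2 h against 0 h and 2 h against 1 h, with 8, 2 and 13 under 0.05 before adjustment. The share of all genes under 0.05 before adjustment is not given, so such counts in these lists are not read. DESeq2 called 0, 0 and 2, not read for lack of its share of all genes, and limma-voom 0 in each. At 1 h all 10 IRF3-type targets had positive differences (median 0.433 against 0.00524 over all genes), as did 15 of 16 IRF1-type targets (median 0.278), and 2 and 1 of them had an unadjusted p under 0.05. Ifit3 had the smallest p of the IRF3-type targets (1.92, SE 0.691, adjusted p = 0.846), and Isg15 was at 0.33 (SE 0.146, adjusted p = 0.846). Psme2, a proteasome activator subunit, had that of the IRF1-type targets (0.24, SE 0.0849, adjusted p = 0.846). Il6, of the IRF5-type list, was at 1.07 (SE 0.356, adjusted p = 0.846). Without the first 1 h library 7 of 10 and 10 of 16 were positive, with medians of 0.11 and 0.06. The Irf1 difference, 0.46 with it, was 0.41 without it.

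Genes with the pattern most like a member were named by Pearson's r of log2(CPM + 1), as a description. Over all 27 libraries, which fall into 3 cell types, Irf8 was nearest to Cd52, Cd68 and Hpgds (r = 0.998 for each), Irf5 to Irf8, Hhex and Rab8b (0.996), Irf4 to Rhoh, P2ry13 and Ptpro (0.995), Irf2 to Arhgap17, Gramd1b and Cfp (0.99 to 0.991), and Irf3 to Aamp, Slc35b2 and Rnf5 (0.975 to 0.978). Irf1 had Sowahc, Tnfaip3 and Pim1 (0.962 to 0.977). Over the 9 macrophage libraries Irf1 was nearest to Zfp36, an mRNA decay factor (r = 0.995), Nlrp3, the inflammasome sensor (0.994), and Clec4e, a C-type lectin receptor (0.993). Over the 9 fibroblast libraries it was nearest to Galk1 (0.971), Eid1 (0.964) and Manf (0.954). The libraries compared share cell type and kit, and the macrophage values rest on the 3 libraries in which Irf1 was high.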

How the data were processed

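Bulk RNA from 27 libraries was sequenced. The authors deposited estimated counts (expected counts) per gene, already whole numbers, for which the submitters' processing notes list cutadapt, FastQC, STAR, RSEM and DESeq2 with mm10/GRCm38.p6. Tool settings and the strand of counting are not given in the sources used here. Per the labels' protocols, a directional kit served macrophages and fibroblasts, a low-input kit the cells labelled aortic endothelial. The 9 group tables held the same values as the full table.

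Groups came from the labels. Each cell type (9 libraries) was fitted alone, and all 27 together for cell types at 0 h and interactions, with edgeR 4.0.16 (R 4.3.3; genes kept by filterByExpr at its minimum of 10 counts, TMM scaling, robust quasi-likelihood F test), which tested 13251, 14066, 14779 and 17038 genes. P-values were adjusted by Benjamini-Hochberg over all genes tested, with a threshold of 0.05. CPM used totals scaled by TMM within each cell type; CPM per kb used 1 TMM scaling of all libraries and GENCODE M21 exon lengths (97.0% of symbols matched). Alternatives were DESeq2 1.42.0, limma-voom 3.58.1, other scalings and filters, groups alone, a replicate block, and leaving out libraries. The procedure was tested on simulated data. No pair of libraries agreed within sampling noise. The members and lists were chosen with earlier results of these data known. Beside the members, the text names genes of those lists by smallest p, the genes most correlated with a member, and Nfkbia and Tnf; Spi1, Isg15, Mrc1 and Chil3 were named after their values were seen.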

Additional observations from a re-analysis of the deposited data

How the results depend on the processing

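Over the alternatives, unstimulated macrophages against fibroblasts gave 4 to 5 called members, macrophages against cells labelled aortic endothelial 5 to 6, and cells labelled aortic endothelial against fibroblasts 3 to 6. The counts of Irf4 and Irf8 outside macrophages were near 0, so nothing is read from their calls between the other cell types. Leaving out the third library of each of the 1 h and 2 h macrophage groups gave 1 called member at 1 h against 0 h and 1 at 2 h against 1 h, where all libraries gave 0, and put Irf1 at 2 h against 0 h at -0.021. In fibroblasts DESeq2 gave 1 at 1 h against 0 h and 1 at 2 h against 1 h, and no filter on low counts gave 1 in the latter; leaving out single libraries gave 0 to 1 there, the 1 coming without the first 1 h library. When calls also needed a log2 difference of 1 or more in size, unstimulated cells labelled aortic endothelial against fibroblasts kept 3 called members of 5, Irf1, Irf3 and Irf8. Leaving out single libraries gave 0 to 1 called members in 4 of the 6 interaction comparisons, the 1 being Irf8, which is not read for the same reason, or Irf5 without the first 1 h library of those cells. Except for the fit without the third macrophage libraries, the share of all genes called under these alternatives is not given here. Their calls are thus no support.

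Signs turned only for differences that did not pass the test. With library totals alone Irf1 was at -0.008 in unstimulated macrophages against fibroblasts, and Irf2 at -0.012 in fibroblasts at 2 h against 0 h. Irf3 in that last comparison was at 0.003 with DESeq2, 0.003 with RLE scaling and 0.001 with no filter. Leaving out single libraries, differences at 1 h against 0 h ranged from -0.124 to 0.651 for Irf1 in the cells labelled aortic endothelial, from -0.09 to 0.095 for Irf2 and from -0.161 to 0.104 for Irf3 in fibroblasts, and from -0.078 to 0.252 for Irf4 and from -0.034 to 0.08 for Irf8 in macrophages. At 2 h against 0 h they ranged from -0.216 to 0.56 for Irf1 in the cells labelled aortic endothelial. In fibroblasts they ranged from -0.103 to 0.035 for Irf1, from -0.053 to 0.077 for Irf2, from -0.088 to 0.081 for Irf3 and from -0.011 to 0.198 for Irf5. In macrophages they ranged from -0.021 to 1.055 for Irf1, from -0.098 to 0.035 for Irf3, from -0.006 to 0.073 for Irf5 and from -0.045 to 0.066 for Irf8. The cause of these changes was not tested.

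The replicate block used runs of consecutive library codes. Deviations of libraries of the same run correlated at -0.36 to 0.14 in macrophages, -0.096 to 0.37 in fibroblasts and -0.043 to 0.21 in the cells labelled aortic endothelial. Those of different runs correlated at -0.23 to 0.28 in macrophages, -0.32 to 0.19 in fibroblasts and -0.19 to 0.12 in the cells labelled aortic endothelial. The ranges overlapped but lay lower for different runs in the last 2, so whether runs pair libraries is not settled. The main fits used no block. With the replicate block 0 members were called with ImP in each cell type, and the adjusted p of Irf1 in fibroblasts was 0.195 at 1 h against 0 h and 0.0669 at 2 h against 1 h. Low counts limit Irf4 and Irf8 outside macrophages, and 3 libraries per group limit every test.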
